A study of Mus musculus with 4 samples.

Results

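SR proteins and heterogeneous nuclear ribonucleoproteins (hnRNPs) are the RNA-binding proteins that decide, together with the spliceosome, which exons of a transcript are kept. Their genes were examined here in nascent RNA of DP (double positive) thymocytes, T cell precursors that bear CD4 together with CD8, with and without the transcription regulator Tox4. Members were every gene of the count table whose symbol starts with Srsf or Hnrnp, together with Tra2a, Tra2b, Ptbp1, Ptbp2, Ptbp3, Esrp1, Esrp2, Rbfox2, Mbnl1, Mbnl2, Celf1 and Celf2, which gave 44 of 24984 genes. They comprised 13 SR protein genes (Srsf and Tra2), 21 hnRNP genes and 10 genes of the Ptbp, Esrp, Rbfox, Mbnl and Celf families.

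SR proteins carry an arginine and serine rich domain and mostly favour the inclusion of exons they bind, while many hnRNPs favour skipping, so that the balance between both groups sets splicing in a cell. Phosphorylation by the SRPK and CLK kinases moves SR proteins into the nucleus and onto transcripts. In T cells a well known target is Ptprc, which encodes CD45 and whose variable exons are silenced by hnRNP L and the related hnRNP LL.

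TTchem-seq had been applied, which pulls down RNA that incorporated 4-thiouridine in a short pulse, so that fragments from introns and exons of a gene both report its synthesis. WT mice were homozygous for a Tox4 allele with loxP sites around exons 4 to 6 (Tox4;F/F) and had no Cre, and cKO mice carried in addition Cre under the proximal Lck promoter (Tox4;F/F;Lck+), which acts in T cells from an early thymic stage. Mice were littermates of the C57BL/6 background, 6 to 8 weeks old and, per the study's methods, matched for sex, and 2 libraries were made per genotype. The study describes its genomic libraries as biological replicates, but whether the 2 libraries of a genotype came from separate animals is not stated, so p-values measure only the spread between these libraries, and an effect of Cre itself cannot be told apart from that of the deletion. Xist, the RNA of the inactive X chromosome, was at 172 CPM in the first WT library and at 2.36, 1.09 and 0 CPM in the second WT and the 2 cKO libraries, so the first WT library stands apart from the stated match.

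Total fragments per library lay between 38429786 and 48690591, and the members took between 0.835% and 0.874% of them. Tox4 stood at 74.0 and 70.3 CPM (fragments scaled to a common library total) in WT and at 59.3 and 57.2 CPM in cKO. Its fall by 0.31 ± 0.10 (SE) on the log2 scale passed the DESeq2 test (adjusted p = 0.0453) but not that of edgeR (adjusted p = 0.117), and since the count covers the whole gene it also holds RNA from outside the deleted exons. All 8 DP thymocyte markers were at a mean of at least 1 CPM, and so were 0 of 5 thymic epithelial, 2 of 5 B cell, 1 of 4 myeloid and 0 of 4 erythroid markers. The study's methods purify DP cells with beads against CD4, though not stated for this assay, so CD4 single positive T cells could be among them. The 4 markers of mature single positive T cells summed to 429 and 422 CPM in WT and to 408 and 353 CPM in cKO.

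Nearly all members gave signal in the nascent RNA of these libraries. A mean of at least 1 CPM over the 4 libraries was reached by 43 of the 44 members, and the exception, Hnrnpa1l2-ps2, a pseudogene, had 0 fragments in every library. This cut takes no account of gene length, and some B cell and myeloid markers passed it too. Per kilobase of deposited gene length, introns included, the median level was 8.58 CPM per kb for SR protein genes, 7.71 for hnRNP genes and 2.66 for the genes of the other families, beside 1.46 over all 11625 genes with a mean of at least 1 CPM.

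Ptbp1, which encodes the polypyrimidine tract binding protein that represses exons beside such tracts, had the highest level at 29.3 ± 1.67 CPM per kb (SD, 4 libraries). Srsf2, whose product SC35 binds exonic enhancers, followed at 29.2 ± 2.41 CPM per kb. The 4-library ranges of these 2 genes overlapped, and both lay above every value of the next gene, Hnrnpl, at 23.3 ± 1.32 CPM per kb. The level of Ptbp1 is uncertain, since the deposited entry of Bc1, which covers long stretches of 2 chromosomes and had a mean of 360 CPM over them, overlaps it on the opposite strand, its counts held fractions in 3 libraries, and the strand setting of the counting is not given.

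Srsf3, which encodes the smallest SR protein, stood at 22.5 ± 0.96 CPM per kb, in the same range as Hnrnpl. Hnrnpa2b1, for a protein of the hnRNP core particle, followed at 19.1 ± 1.22 and Srsf5 at 18.6 ± 1.57 CPM per kb. Srsf3 was apart from Hnrnpa2b1, whereas Hnrnpa2b1, Srsf5 and Hnrnpab overlapped. Down the whole order, 13 members were apart from the next one below.

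At the lower end, Esrp2 (1.39 ± 0.71 CPM per kb) and Celf2 (0.96 ± 0.11) overlapped in range, although Celf2 is a very long gene whose total signal was large. Srsf12 (0.059 ± 0.021 CPM per kb), Esrp1 (0.044 ± 0.015) and Rbfox2 (0.0067 ± 0.0021) were far below all others. This order rests on the deposited length: per kilobase of RefSeq exon, the 6 highest members were Mbnl1, Mbnl2, Hnrnpm, Hnrnpl, Ptbp1 and Celf2, which shared 2 genes with the order above.

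**Figure D1:**
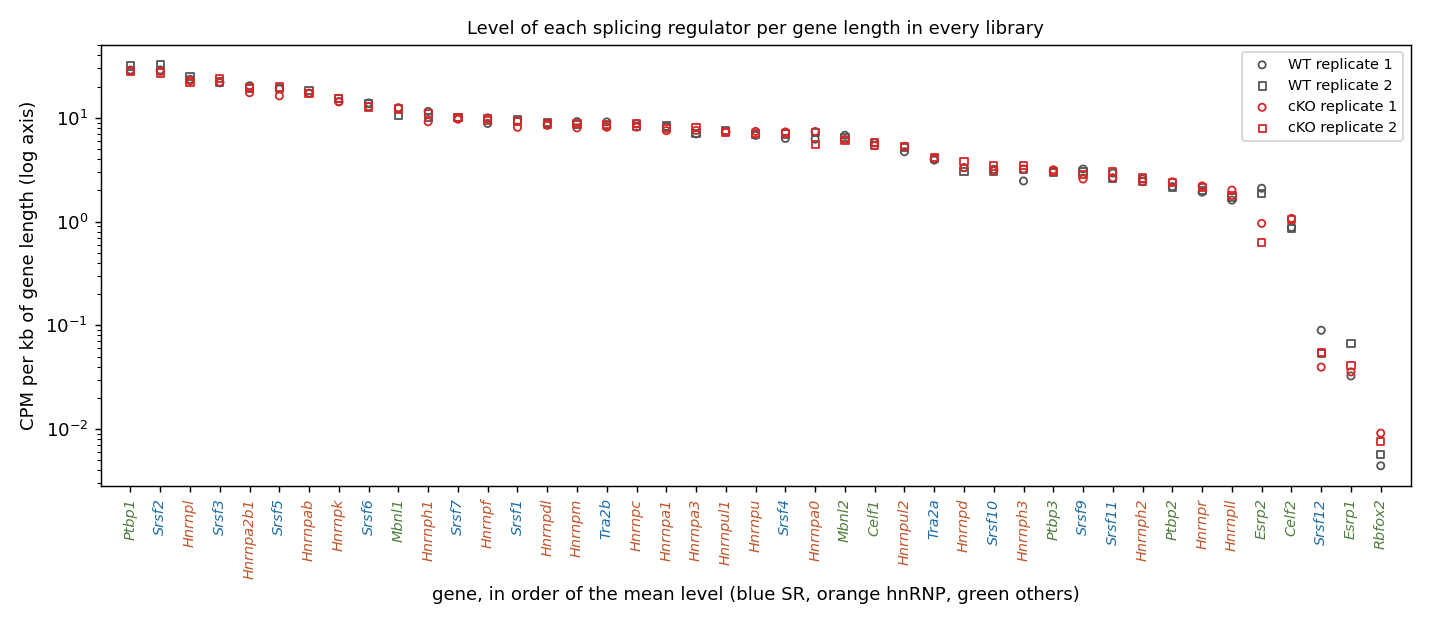
Level of the 43 members with a mean of at least 1 CPM, in CPM per kb of gene length (log axis), ordered by the mean over 4 libraries. Each point is 1 library, grey for WT and red for cKO, and the name's colour gives the gene family. Ptbp1 and Srsf2 lead near 29 CPM per kb, Srsf12, Esrp1 and Rbfox2 lie below 0.1, and among the genes above these 3 the WT and cKO points of Esrp2 are the farthest apart.

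Promoter sequences are shown for the SR and the hnRNP gene of highest level, Srsf2 and Hnrnpl, since motif counts for both families follow. They are the 250 bases before the first transcribed base, from RefSeq annotation of GRCm38.p6, printed 5′ to 3′ on the gene's strand. Capitals mark matches on either strand, which may share bases, to GGGCGG (the GC box), to CCAAT (the site of NF-Y), to TATAAA (the box read by TBP) and to CCGGAA, which holds the core that Ets factors bind. Srsf2 (chr11:116853095-116853344, minus strand) held 5 GC boxes and 1 match of each other motif, while Hnrnpl (chr7:28810640-28810889, plus strand) held 4 CCAAT matches and 1 GC box.
Srsf2: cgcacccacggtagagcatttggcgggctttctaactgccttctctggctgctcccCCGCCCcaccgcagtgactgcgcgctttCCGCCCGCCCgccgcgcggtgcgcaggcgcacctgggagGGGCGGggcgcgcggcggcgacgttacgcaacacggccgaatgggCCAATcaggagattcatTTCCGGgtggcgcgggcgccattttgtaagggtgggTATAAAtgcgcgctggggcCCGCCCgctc
Hnrnpl: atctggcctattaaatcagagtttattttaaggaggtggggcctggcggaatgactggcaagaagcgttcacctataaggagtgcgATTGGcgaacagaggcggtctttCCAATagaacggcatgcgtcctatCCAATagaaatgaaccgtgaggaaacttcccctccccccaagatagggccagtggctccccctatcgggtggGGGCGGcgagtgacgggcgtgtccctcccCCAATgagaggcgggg

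Of the 44 members, 38 had a promoter entry, and Esrp1, Esrp2, Hnrnpll, Hnrnpul2, Ptbp3 and Rbfox2 had none. With 1 promoter per gene, the one nearest to the deposited start and within 1000 bases of it, 36 members with a mean of at least 1 CPM were counted. A GC box was found in 12 of 13 SR promoters (92.3%) and 13 of 17 hnRNP promoters (76.5%), beside 61.1% for genes with a mean of at least 1 CPM and 43.1% for all 17882 genes. CCAAT was found in 11 of 17 hnRNP promoters (64.7%) but 4 of 13 SR promoters (30.8%), beside 37.4% and 36.0% for these 2 backgrounds. CCGGAA was in 6 of 13 SR promoters (46.2%; 24.7% and 15.4% in the backgrounds), and TATAAA in 5 of 36 members (13.9%; 5.81% and 11.9%). The median number of CpG dinucleotides was 22.5 in members and 17 in genes with a mean of at least 1 CPM. These matches are a description of letters and show no binding.

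Few members differed between cKO and WT beyond the thresholds of the test. With DESeq2, 2 of 43 members tested were called (4.65%, beside 3.71% of all genes tested), at an adjusted p below 0.05 and a fold change of at least 1.2. Celf2 was called higher (2.14% of all genes were) and Esrp2 lower (1.57% of all genes were). No SR protein gene and no hnRNP gene was called. An adjusted p was given for 41 of the 43, and none for Srsf12 and Rbfox2, whose mean counts were too low. An unadjusted p under 0.05 was found for the same number, 2 members, beside 13.5% of all genes. edgeR called 0 members (0.705% of all genes, 0.559% higher and 0.146% lower), with 3 at an unadjusted p under 0.05 (15.7% of all genes), and limma voom called 1, Esrp2, as lower (0.172% of all genes were called lower and 0.551% higher, 0.723% in all). With the replicate number as a block, edgeR called Esrp2 too (adjusted p = 0.0177), and neither edgeR fit called Celf2.

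The median log2 fold change was -0.01 over the 43 members and 0.00 over all genes, with 19 members above 0 and 24 below. It was -0.07 for SR protein genes, -0.01 for hnRNP genes and 0.03 for the other families. For 17 members (39.5%, beside 17.5% of all genes) the whole 95% interval of the fold change lay within 1.2-fold in either direction. The intervals of the other 24 members without a call reached past 1.2-fold, so a change of that size was not excluded for them. The median absolute log2 difference over members was 0.10 between the genotype means, 0.08 within WT and 0.09 within cKO, beside 0.12, 0.11 and 0.12 over all genes. A difference of means of 2 libraries varies less than one of single libraries, so the first value is not on the scale of the other 2. The libraries of cKO and WT did not overlap for 24 members (48.9% of all genes), with cKO above for 13 (30.2%, beside 24.9% of all genes) and below for 11 (25.6%, beside 24.0%).

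**Figure D2:**
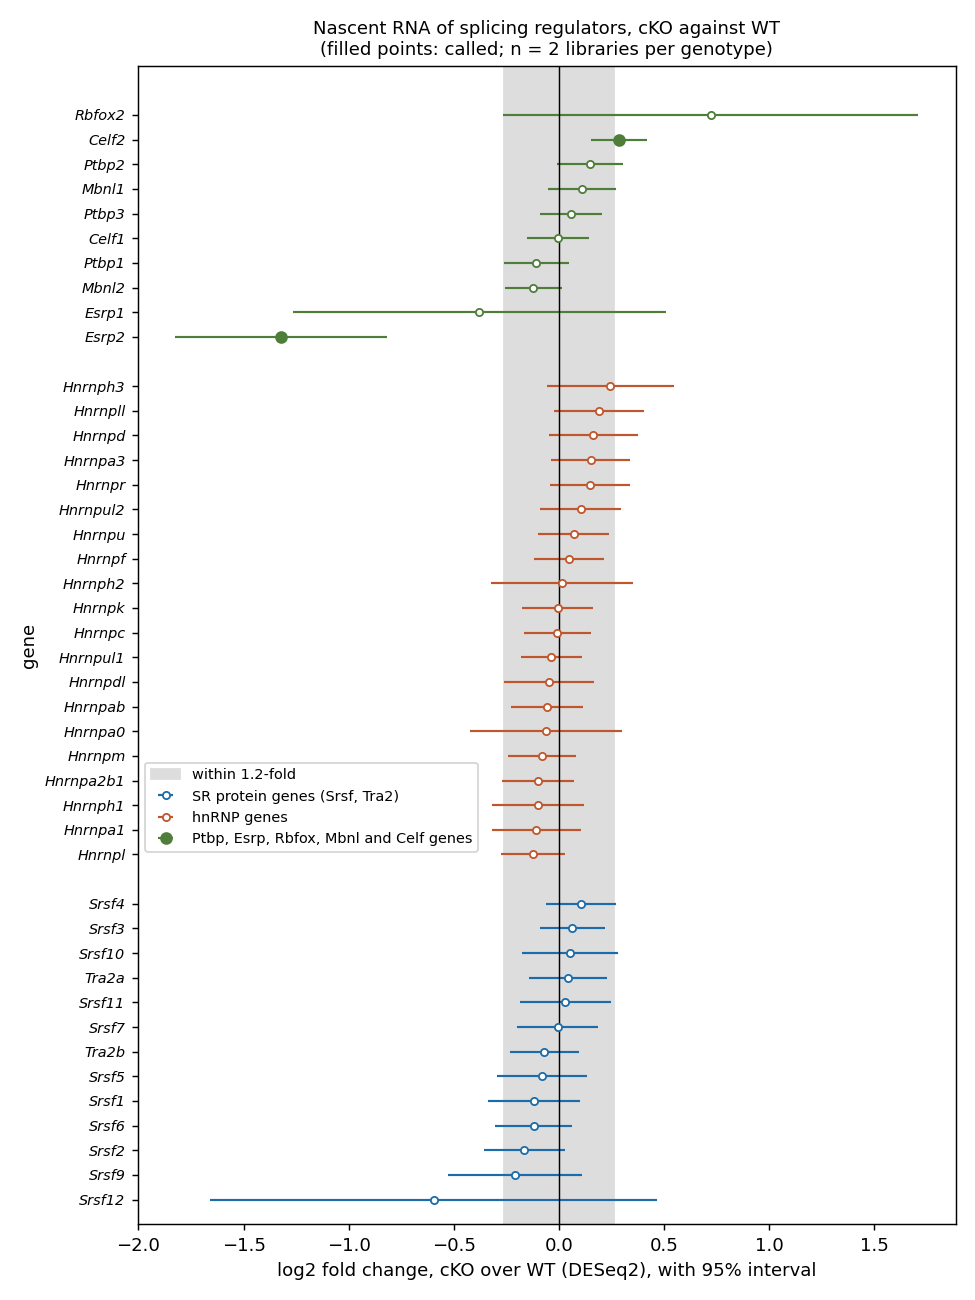
DESeq2 log2 fold change of cKO over WT for each of the 43 members with its 95% interval, grouped by family, with 2 libraries per genotype; the grey band spans 1.2-fold in each direction and filled points were called. Esrp2 lies at -1.32 and Celf2 at 0.29, every SR and hnRNP point is open, and the widest intervals belong to Srsf12, Rbfox2 and Esrp1.

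Among SR protein genes, 5 of 13 were above and 8 below their WT level without a call. Srsf2 stood at 92.7 and 104 CPM in WT and at 89.8 and 86.5 CPM in cKO. Both cKO libraries were lower, yet the difference of -0.16 ± 0.10 (SE, log2) had an adjusted p of 0.487, and it was -0.25 without the first WT library and -0.07 without the second. Srsf1, the founding SR protein SF2/ASF, was at 59.5 and 61.1 CPM in WT and at 51.8 and 59.3 CPM in cKO. Its second cKO library was close to the first WT library (-0.12 ± 0.11, adjusted p = 0.733).

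Srsf9, for a short SR protein, was at 19.0 and 17.9 CPM in WT and at 15.2 and 16.8 CPM in cKO (log2 fold change -0.21 ± 0.16, adjusted p = 0.645). Srsf12, a rarely transcribed SR gene, was at 2.18 and 1.29 CPM in WT and at 0.963 and 1.33 CPM in cKO. Its groups overlapped, and its value of -0.60 ± 0.54 became -0.18 without the first WT library.

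Srsf3, whose protein also takes part in mRNA export, was at 234 and 237 CPM in WT and at 237 and 256 CPM in cKO, with the groups overlapping. Srsf7, a relative of Srsf3 with a zinc knuckle, was at 70.9 and 73.0 CPM in WT and at 70.3 and 73.2 CPM in cKO. For both genes the 95% interval stayed within 1.2-fold. Srsf5 was at 95.3 and 96.0 CPM in WT and at 81.7 and 99.6 CPM in cKO, so its cKO libraries lay on both sides of WT. The other 6 SR protein genes had log2 fold changes between -0.12 (Srsf6) and 0.11 (Srsf4).

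Of the hnRNP genes tested, 9 of 20 were above and 11 below their WT level, none with a call. Hnrnpl was at 268 and 284 CPM in WT and at 259 and 248 CPM in cKO (-0.12 ± 0.08, adjusted p = 0.509). Its relative Hnrnpll was at 52.9 and 55.8 CPM in WT and at 66.0 and 58.4 CPM in cKO (0.19 ± 0.11, adjusted p = 0.448). Libraries of the 2 genotypes did not overlap for either gene, and the directions were opposite, but neither passed the test and the difference between the 2 genes was not tested.

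Hnrnpa1, the best known antagonist of SR proteins, was at 51.8 and 52.5 CPM in WT and at 47.5 and 49.6 CPM in cKO (-0.11 ± 0.11). Its counts held fractions in every library and many retrocopies of this gene are known, so its level is uncertain. It also overlaps the entries Gm5643 and Gm10052 on the same strand, at means of 37.3 and 32.7 CPM. Hnrnpa2b1 was at 193 and 181 CPM in WT and at 166 and 184 CPM in cKO, and Hnrnpk, which binds C-rich RNA, at 175 and 188 CPM in WT and at 174 and 189 CPM in cKO. Both genes overlapped between genotypes, and the interval of Hnrnpk stayed within 1.2-fold.

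The largest positive values in the family were those of Hnrnph3 and Hnrnpll. Hnrnph3, a binder of G-rich RNA, was at 22.7 and 29.0 CPM in WT and at 29.6 and 31.8 CPM in cKO (0.25 ± 0.15, adjusted p = 0.510), and its value was 0.07 without the first WT library and 0.44 without the second. The WT libraries were farther apart than the second WT and the first cKO library. Hnrnpd, for the AU-rich element binder AUF1, was at 76.3 and 70.2 CPM in WT and at 76.3 and 88.1 CPM in cKO (0.16 ± 0.11, adjusted p = 0.540), with only the second cKO library clearly higher. Its value was 0.27 without the first cKO library and 0.05 without the second. The other 13 hnRNP genes tested lay between -0.10 (Hnrnph1) and 0.15 (Hnrnpa3). Hnrnpa3 overlaps the entry Gm6793 on the same strand (mean 31.6 CPM) and held fractions in 3 libraries, so its level is uncertain too.

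Esrp2 was the member with the largest difference. It encodes a splicing regulator known for epithelial exon choices such as that in Fgfr2. Its level was 12.2 and 10.8 CPM in WT and 5.57 and 3.65 CPM in cKO, from 518, 527, 214 and 145 fragments. Both cKO libraries were well below both WT libraries. The fold change of 2.50 downwards (log2 -1.32 ± 0.26) had an adjusted p of 3.6e-05 in DESeq2, 0.0475 in limma voom and 0.0515 in edgeR. In the bulk samples fewer cells of a type and less RNA per cell cannot be told apart. Without the first WT library, the one with high Xist, the DESeq2 value was -1.25 (adjusted p = 0.0710) and without the second cKO library -1.05 (adjusted p = 0.0966), neither a call.

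Esrp2 lies at chr8:106131183-106136974 on the minus strand. Its neighbours were looked up after the call was known. 1810019D21Rik, on the opposite strand, overlaps 1575 bases at the 5′ end of Esrp2 and was at 11.7 and 9.65 CPM in WT and at 15.5 and 13.6 CPM in cKO. This overlapping gene was thus higher in both cKO libraries, though it was not called (0.44 ± 0.19, adjusted p = 0.232). Nfatc3, which ends 645 bases away, had a log2 fold change of -0.04. The counts of Esrp2 were whole numbers in every library.

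Esrp1, its paralogue, was at 1.78 and 3.64 CPM in WT and at 1.95 and 2.24 CPM in cKO, with the cKO values between those of WT (-0.38 ± 0.45, adjusted p = 0.812, and 0.24 without the second WT library). The 5 thymic epithelial markers summed to 0.739 and 1.13 CPM in WT and to 0.833 and 0.654 CPM in cKO, with overlap, and Psmb11, which marks cortical epithelium, was at 0 in every library. B cell markers summed to between 4.02 and 6.04 CPM, with overlap, and erythroid ones to 0.465 CPM or less. Myeloid markers summed to 3.33 and 2.81 CPM in WT and to 1.98 and 2.59 CPM in cKO, without overlap, with Lyz2 and Csf1r lower in both cKO libraries but Itgam higher (1.06 and 1.07 CPM in WT, 1.51 and 1.53 CPM in cKO). Single positive markers were lowest in the second cKO library (353 CPM), which also held the lowest Esrp2 value. The part of myeloid and single positive cells in the result was not tested.

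Celf2, a regulator whose splicing activity is known to change when T cells are stimulated, was at 753 and 729 CPM in WT and at 920 and 891 CPM in cKO. Both cKO libraries exceeded both WT libraries, with a gap wider than the distance between replicates. DESeq2 gave a fold change of 1.22 (log2 0.29 ± 0.07, adjusted p = 0.0016), barely past the limit of 1.2, against an adjusted p of 0.0808 in limma voom and 0.0965 in edgeR. Without the first or the second cKO library the value was 0.27 or 0.30 and no longer called (adjusted p = 0.413 and 0.267). Celf1, its relative, was at 455 and 430 CPM in WT and at 427 and 456 CPM in cKO, with an interval inside 1.2-fold.

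Celf2 is the longest member, 856500 bases at chr2:6539699-7396198 on the minus strand, and RefSeq gives it 5 starts. The count sums over all of them, so the start behind the rise cannot be read from it, and the outermost and the most CpG-rich are shown; the windows of the other 3 held 5, 5 and 7 CpG dinucleotides. The window at the 5′ end of the deposited gene (chr2:7396199-7396448, minus strand) held 3 CpG dinucleotides, 1 TATAAA and 1 CCGGAA, and one far inside the gene (chr2:6872036-6872285, minus strand) held 43 CpG dinucleotides and 3 GC boxes.
Celf2, outermost start: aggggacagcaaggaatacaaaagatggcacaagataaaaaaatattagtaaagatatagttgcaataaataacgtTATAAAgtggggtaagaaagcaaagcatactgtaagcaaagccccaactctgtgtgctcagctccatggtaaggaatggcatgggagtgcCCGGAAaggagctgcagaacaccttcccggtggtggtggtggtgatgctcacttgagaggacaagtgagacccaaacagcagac
Celf2, internal start: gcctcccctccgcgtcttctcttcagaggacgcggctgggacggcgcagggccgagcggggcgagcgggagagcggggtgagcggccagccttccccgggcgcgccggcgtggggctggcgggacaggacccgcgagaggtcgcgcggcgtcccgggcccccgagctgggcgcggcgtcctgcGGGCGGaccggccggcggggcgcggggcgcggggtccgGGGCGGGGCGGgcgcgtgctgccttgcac

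Ptbp1, Ptbp2, Ptbp3, Mbnl1, Mbnl2 and Rbfox2 were not called. Ptbp1 was at 290 and 317 CPM in WT and at 285 and 280 CPM in cKO (-0.11 ± 0.08), and Ptbp2, its neural paralogue, at 141 and 138 CPM in WT and at 156 and 154 CPM in cKO (0.15 ± 0.08, adjusted p = 0.400). Genotypes did not overlap for either, and the signs were opposite. Mbnl1, which promotes adult splicing forms in muscle, was at 1944 and 1645 CPM in WT and at 1968 and 1915 CPM in cKO. Mbnl2 was at 1061 and 1006 CPM in WT and at 966 and 938 CPM in cKO (-0.12 ± 0.07, adjusted p = 0.437). Rbfox2, a binder of UGCAUG, was at 1.01 and 1.29 CPM in WT and at 2.08 and 1.74 CPM in cKO, with no adjusted p at this depth (0.72 ± 0.50).

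**Figure D3:**
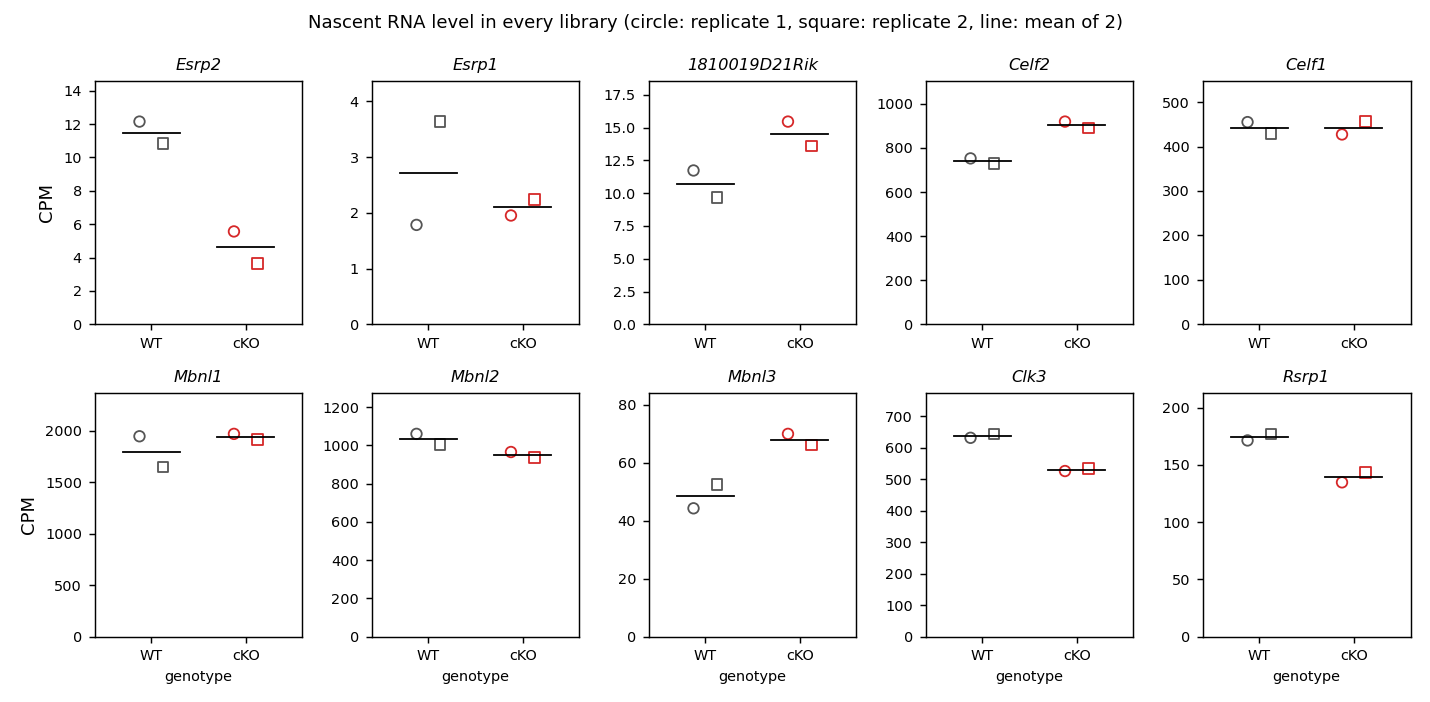
CPM in each library for the called members Esrp2 and Celf2, their relatives Esrp1 and Celf1, the gene overlapping Esrp2, the Mbnl genes, Clk3 and Rsrp1; grey points are WT, red points cKO, circles replicate 1, squares replicate 2, lines the mean of 2, and every axis starts at 0. Esrp2 fell from 12.2 and 10.8 to 5.57 and 3.65 CPM while the Esrp1 groups overlap. The groups of Celf2, Mbnl2, Mbnl3, Clk3, Rsrp1 and the gene overlapping Esrp2 do not overlap, which holds for 48.9% of all genes.

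Differences followed gene length more closely among the members than among all genes. Spearman's rho between gene length and log2 fold change was 0.46 over 43 members and 0.16 over 11625 genes. It is given as a description, since all points share the same 4 libraries. The median SE was 0.10 over members and 0.15 over all genes, so the 2 values of rho were not matched for precision. Of the members of at most 10 kb, 2 of 15 were above their WT level (13.3%, beside 40.8% of all genes of that length), the exceptions being Hnrnph2 and Hnrnph3. Between 10 and 50 kb 12 of 20 were (60.0%, beside 50.3%), and above 50 kb 5 of 8 (62.5%, beside 59.3%). Leaving out each library in turn gave between 13.3% and 33.3% for the shortest class, the highest without the first cKO library (37.3% of all genes then). The median log2 fold change in these 3 classes was -0.10, 0.05 and 0.08.

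The median length was 10713 bases for SR protein genes and 11794 for hnRNP genes, against 22650 for all genes. Between the 2 WT libraries (second over first) the same rho was -0.13 over members and -0.18 over all genes, and between the 2 cKO libraries it was -0.15 and 0.10. Over all genes, replicates of 1 genotype thus differed with length about as much as the genotypes did. Leaving out each library in turn gave between 0.38 and 0.55 over members and between 0.05 and 0.25 over all genes. When a smooth trend of the log2 ratio on length was removed from each library, rho fell to 0.30 over members and to 0.00 over all genes. Esrp2 kept its call (-1.29, adjusted p = 5.5e-05), and Celf2 was at 0.23 (adjusted p = 0.0139), a fold change of 1.17 and so below the limit.

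**Figure D4:**
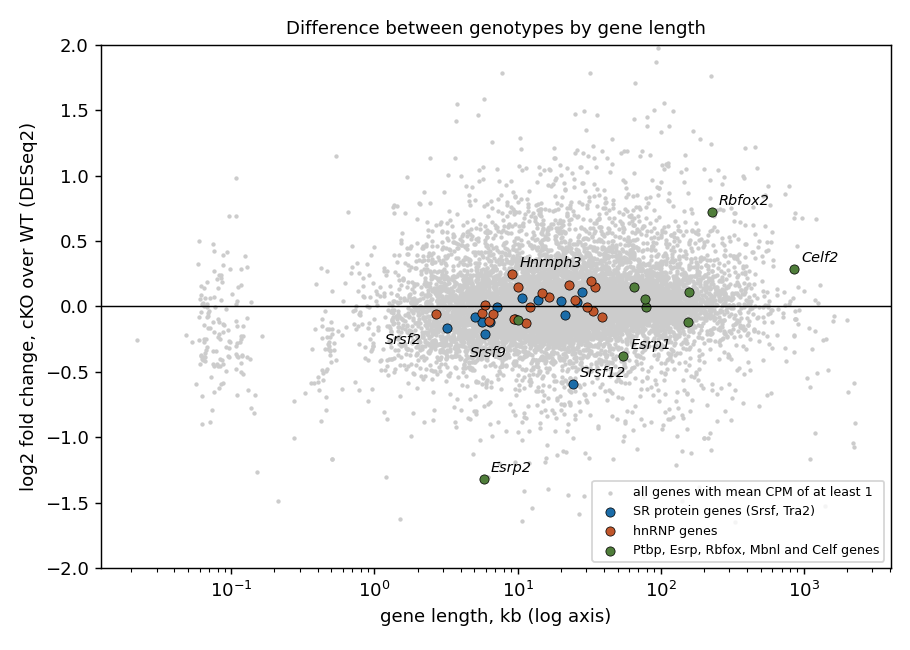
DESeq2 log2 fold change of cKO over WT against gene length in kb (log axis) for all 11625 genes with a mean of at least 1 CPM in grey and for the 43 members by family; 7 genes lie outside the plotted range of 2 in either direction. Members shorter than 10 kb sit mostly below 0, with 2 of 15 above, and Celf2 is the longest member.

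The splicing machinery beyond these families was described with 122 further genes, of which 111 had a mean of at least 1 CPM. Among them 1 was called higher and 2 lower (2.7% in all, beside 3.71% of all genes), and the median log2 fold change was -0.03. None of 52 core spliceosome genes was called by DESeq2, with 3 at an unadjusted p under 0.05 by DESeq2 and 3 by edgeR. Of these 52, 37 lay below and 15 above their WT level at a median of -0.06, beside 5788 below and 5837 above among all genes. This lean was not tested, and the lengths of these genes were not taken into account. Of 9 kinases and import factors of SR proteins 1 was called, of 16 SR-related proteins 1, and of 34 other RNA-binding splicing regulators 1. edgeR and limma voom called 0 of the 111, with 10 at an unadjusted p under 0.05 by DESeq2 (9.01%, beside 13.5% of all genes) and 11 by edgeR (9.91%, beside 15.7%).

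Clk3, a kinase that phosphorylates SR proteins, was at 632 and 644 CPM in WT and at 526 and 534 CPM in cKO. It was lower in both cKO libraries, by -0.27 ± 0.07 on the log2 scale (adjusted p = 0.0048 in DESeq2, 0.107 in edgeR). Rsrp1, for a small arginine and serine rich protein, was at 171 and 177 CPM in WT and at 135 and 143 CPM in cKO (-0.33 ± 0.08, adjusted p = 0.0047 in DESeq2, 0.0879 in edgeR). Without the second WT library or either cKO library both calls were lost, and that of Rsrp1 also without the first WT library.

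Mbnl3, the X-linked relative of Mbnl1 and Mbnl2, was at 44.3 and 52.5 CPM in WT and at 70.0 and 66.0 CPM in cKO. It was higher in both cKO libraries (0.49 ± 0.12, adjusted p = 0.0019 in DESeq2, 0.0879 in edgeR), while Mbnl1 overlapped between genotypes and Mbnl2 was lower without a call. The first WT library, which stood apart in Xist, had the lowest Mbnl3 value, and the part of that in the difference was not tested. Without that library Mbnl3 was at 0.36 and not called (adjusted p = 0.280). The call was also lost without either cKO library.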

How the data were processed

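Nascent RNA of DP thymocytes was measured by TTchem-seq in 2 WT and 2 cKO libraries, grouped by the genotype labels. The study's methods state strand-specific libraries, fastp (version 0.13.1), STAR (version 2.7.9a) and GRCm38, and the submitters' processing notes add featureCounts (version 1.6.1) and mm10. Yeast RNA was added to each sample but not used for scaling, so a change shared by all genes would not show. The authors deposited expected counts per gene over the gene's full span, with 8.61% of values fractional, which were rounded to whole numbers here; the strand setting and the treatment of shared fragments were not given in the sources used here. The other deposited column used here, gene length, equals the summed length of its intervals.

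CPM was computed on the column total. DESeq2 (version 1.42.0) was fitted to the whole table with Benjamini-Hochberg adjustment over all genes, and a gene was called at a mean CPM of at least 1, adjusted p below 0.05 and a fold change of at least 1.2, as the study's methods set. Values after ± are SE for log2 fold changes and SD for levels. The edgeR quasi-likelihood test and limma voom were alternatives, together with other scaling, filters, the replicate number as a block, removal of the length trend and leaving out each library. The tests were checked on simulated data. Replicates differed by more than sampling noise (chi-square per degree of freedom 40.7 for WT and 30.7 for cKO).

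The members and gene lists were chosen with earlier results of these data known, so no list was tested as a whole. Named genes were the called members and their relatives, the 5 largest rises and falls, the 6 highest levels, members under 1 CPM, called genes of the other splicing lists and a set of well known members; Hnrnpab, Hnrnpm, Srsf4, Srsf6, Hnrnpa3, Hnrnph1, Hnrnph2, Ptbp2, Mbnl2, Xist and the neighbours of Esrp2 were named after their values were seen.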

Additional observations from a re-analysis of the deposited data

How the results depend on the processing

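Esrp2, Celf2, Tox4, Clk3, Rsrp1 and Mbnl3 kept their direction under every alternative that could be run for them, while the calls depended on the test. Members called higher numbered 1, and 0 under edgeR, limma voom, a fold limit of 1.5, DESeq2 or edgeR with the replicate block, and removal of the length trend (0 to 1 when each library was left out). Members called lower numbered 1, and 0 under edgeR (0 to 1 when each library was left out). The median over members moved from -0.01 to between -0.057 and 0.043 when each library was left out, crossing 0. Tox4 was at -0.31 but not called under edgeR, limma voom, total count factors (adjusted p = 0.0511), independent filtering off (0.0821), a fold limit of 1.5, and the replicate block in DESeq2 (0.361) or edgeR (0.13). Tox4 was at -0.30 (0.0545) with the length trend removed and between -0.34 and -0.28, without a call, when each library was left out. Other splicing genes called higher numbered 1, and 0 under edgeR, limma voom, a fold limit of 1.5, edgeR with the replicate block and without X and Y genes, which removes Mbnl3 (0 to 1 when each library was left out). Those called lower numbered 2, and 0 under edgeR, limma voom, a fold limit of 1.5 and both fits with the replicate block, and 1, Rsrp1, with the length trend removed (0 to 1 when each library was left out). Of the 6 members of highest level 2 were kept per kilobase of exon. Over all genes 249 were called higher and 182 lower, against 65 and 17 by edgeR, 64 and 20 by limma voom, 106 and 44 at a fold limit of 1.5, 121 and 72 by DESeq2 with the replicate block, and 87 and 44 by edgeR with it. Leaving out 1 library gave between 61 and 320 higher and between 28 and 126 lower; the genotype left with 1 library was then assumed to vary like the other. Deviations of same-numbered libraries correlated at -0.03, so no shared deviation was seen. This cannot show whether same-numbered libraries came from littermates or were processed together. For uncalled named genes 263 of the values under other settings stayed within the replicate spread and 2 moved, while with 1 library left out 58 stayed and 18 moved, among them Ptbp1 (-0.18 to -0.03), Srsf1 (-0.22 to -0.02) and Srsf5 (-0.23 to 0.06). With 2 libraries per genotype and low counts, SE reached 0.54 in Srsf12, 0.45 in Esrp1 and 0.50 in Rbfox2, so differences of that size were not detectable at this depth. The cause of these losses was not tested.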
